A study of Mus musculus with 8 samples.

Results

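The type I interferon stimulated genes described here are 37 genes of the mouse that are switched on when a cell receives interferon alpha or beta. They were chosen by symbol as well-known interferon targets, and all 37 were matched by Ensembl identifier among the 34745 genes listed in each file. RNA-seq was carried out on 8 tumours that grew from B16F10 cells, a melanoma line of the C57BL/6 mouse, after subcutaneous injection into C57BL/6J hosts. The ND group was 4 tumours from mice on a normal diet and the HCD group 4 tumours from mice on a high cholesterol diet, called ND 1 to ND 4 and HCD 1 to HCD 4. The labels give no allele, transgene or drug for either group, and no age, sex or harvest time. They number the tumours within a group but do not say whether each came from a separate mouse, so the spread behind each p-value is that among these samples and could be technical. A tumour of this kind holds the injected line together with host immune, vascular and connective tissue cells. In such bulk RNA, fewer cells of a type and less RNA per cell cannot be told apart.

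Type I interferons are secreted when a cell senses foreign or misplaced nucleic acid. They bind the receptor pair IFNAR1 and IFNAR2, whose kinases JAK1 and TYK2 act on STAT2. STAT2 works with IRF9 in a complex that binds the interferon-stimulated response element, a DNA motif in the promoters of target genes. The targets include sensors that detect viral RNA, enzymes that stop translation or degrade RNA, factors that trap viruses, and proteins that amplify or end the signal. In tumours the same program can run in the cancer cells and in the immune cells among them.

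The promoter sequences below are examples of where the response element lies in target genes. Most of those shown hold a match, which was not so for most members with a promoter entry. They are taken from RefSeq (GRCm38.p6), run 5′ to 3′ along the gene's strand, and end at or within a few bases of the annotated start, with bases inside the annotated gene left out. Capitals mark each match to the core of the response element, on either strand, and overlapping matches run together. The windows are chr4:156200819-156200978 on the minus strand for Isg15, chr19:34640729-34640870 on the plus strand for Ifit1, chr19:34583369-34583528 on the plus strand for Ifit3, chr5:120907526-120907685 on the minus strand for Oas1a, chr12:26456453-26456612 on the minus strand for Rsad2 and chr19:34550534-34550693 on the plus strand for Ifit2.
Isg15: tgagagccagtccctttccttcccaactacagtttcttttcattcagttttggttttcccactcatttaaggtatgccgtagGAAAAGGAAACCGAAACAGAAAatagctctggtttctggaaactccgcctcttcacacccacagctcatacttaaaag
Ifit1: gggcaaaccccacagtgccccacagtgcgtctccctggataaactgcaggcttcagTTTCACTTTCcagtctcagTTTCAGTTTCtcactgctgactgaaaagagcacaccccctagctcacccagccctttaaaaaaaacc
Ifit3: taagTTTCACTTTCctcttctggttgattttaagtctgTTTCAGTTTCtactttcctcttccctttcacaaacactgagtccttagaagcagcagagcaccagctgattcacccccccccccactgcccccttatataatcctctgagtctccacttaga
Oas1a: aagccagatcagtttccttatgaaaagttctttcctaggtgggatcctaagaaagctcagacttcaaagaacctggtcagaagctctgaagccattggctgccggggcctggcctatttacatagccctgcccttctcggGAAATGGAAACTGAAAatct
Rsad2: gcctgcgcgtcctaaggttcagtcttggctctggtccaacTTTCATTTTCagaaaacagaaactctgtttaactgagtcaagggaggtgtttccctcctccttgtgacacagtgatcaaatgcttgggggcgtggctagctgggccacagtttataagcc
Ifit2: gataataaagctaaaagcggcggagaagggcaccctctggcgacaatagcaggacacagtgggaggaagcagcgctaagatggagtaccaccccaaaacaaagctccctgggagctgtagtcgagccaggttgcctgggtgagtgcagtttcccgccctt
Isg15 holds 3 overlapping matches, Ifit1 and Ifit3 hold 2 separate matches each, Oas1a holds 2 overlapping matches and Rsad2 holds 1. Ifit2, shown as the family member without these letters, holds 0 in this window. Promoter entries were found for 28 of the 37 members, and 9 of these (32.1%) had a match in the 250 bases before the start, against 936 of 27025 genes (3.46%). The core of the gamma-activated site, a motif in promoters of interferon gamma targets, was found on either strand in 6 of the 28 (21.4%) against 2197 of the 27025 genes (8.13%). A match is a description of letters, and its absence says only that these letters are not in the window.

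Total counts ran from 14599222 to 17722093 per library. ND 2, ND 3 and ND 4 stood apart from the other libraries by their detected genes, with 18088 to 18224 genes having a count against 16285 to 16745. Of the olfactory and vomeronasal receptors, normally made by sensory neurons, 406 to 427 genes had a count in these libraries and 8 to 13 genes in the others. ND 1 was the only ND library on the side of the HCD libraries, so this feature and the diet partly coincide. Melanoma markers were abundant in every tumour, with Dct at 10122 to 13501 CPM and Pmel at 7824 to 10024 CPM (TMM-normalized CPM, the count scaled to library size). All 37 members passed edgeR's filter on low counts. Across the 13186 genes tested, 24 (0.182%) differed between the diets (adjusted p under 0.05 by the quasi-likelihood test of edgeR).

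The interferon stimulated genes were low in 1 ND tumour and at similar levels in the other 7 tumours of both diets. ND 2 had the lowest CPM of the 8 libraries for all 37 members, where it was lowest for 16.7% of all genes tested. In 30 of the 37 it lay under 50% of the lowest other library, which held for 3.02% of all genes. The mean of ND 1, ND 3 and ND 4 was a median of 4.69-fold that of ND 2 over the members, ranging from 1.48-fold for Ifit2 to 18.7-fold for Oas3, against a median of 1.01-fold over all genes tested. Summed over the members, the level was 826 CPM in ND 2, 1956 to 2199 CPM in the other ND libraries and 1947 to 2115 CPM in HCD. ND 2 is 1 library and was singled out with these values known, so its difference from the others is a description with no test.

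**Figure D1:**
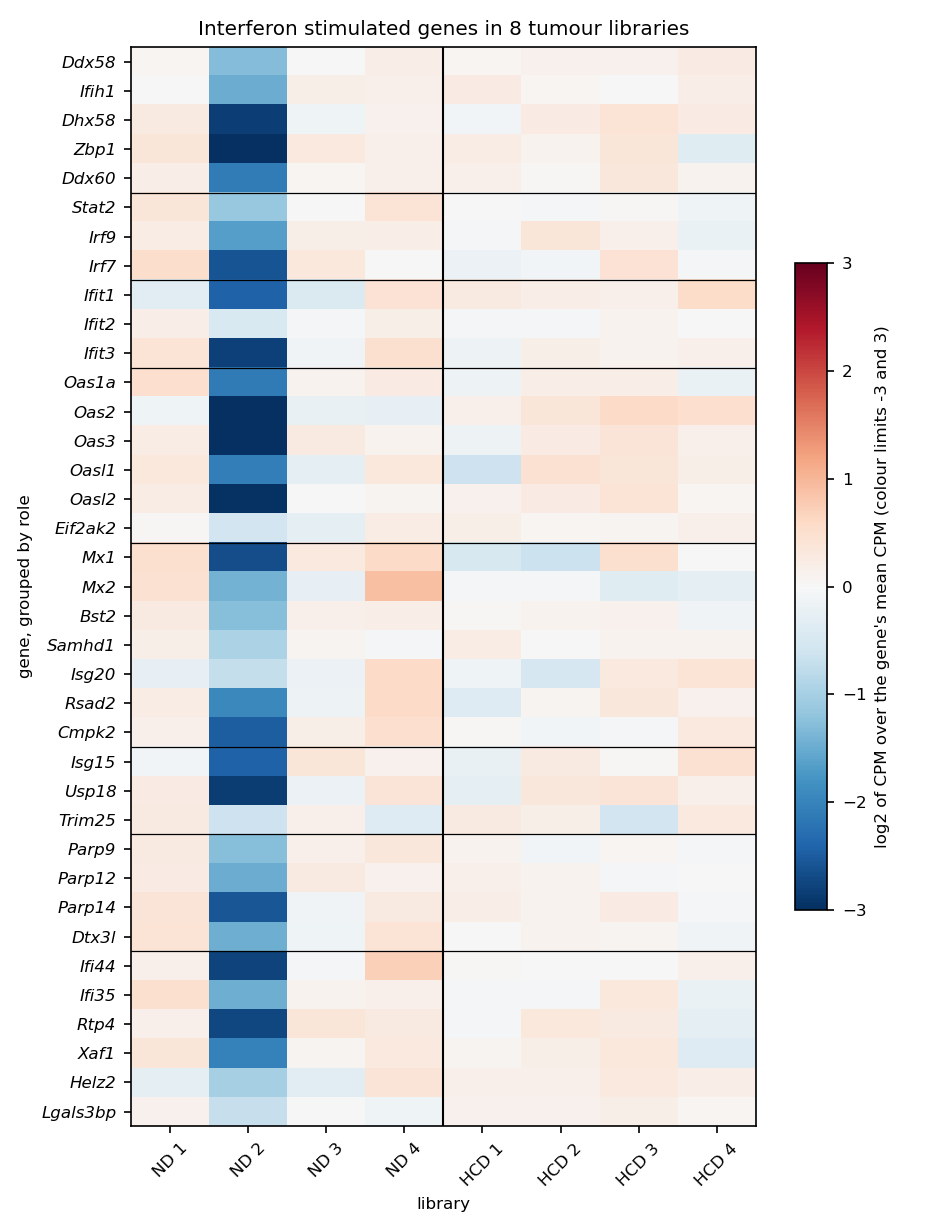
Each row is 1 of the 37 members and each column 1 tumour library. Colour gives log2 of CPM over the member's mean CPM of the 8 libraries, with members grouped by role, and the column of ND 2 is the lowest in every row.

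The members' transcripts were still detected in ND 2. Bst2, which encodes the membrane protein tetherin, had 119 CPM there, and the 7 members at 50% or more of the lowest other library were Samhd1 (53.2%), Helz2 (64.3%), Lgals3bp (67.8%), Ifit2 (75.8%), Eif2ak2 (82.3%), Isg20 (86.0%) and Trim25 (97.4%). The members just under the 50% line were Stat2 (49.9%) and Mx2 (48.2%). Among the other 7 libraries the members were even: 18 of 37 spanned less than 1.5-fold from the lowest to the highest, and 4, namely Oasl1, Mx1, Mx2 and Isg20, spanned over 2-fold. The median coefficient of variation was 12.3% in HCD and 14.3% in ND 1, ND 3 and ND 4, against 11.4% and 11.2% over all genes tested. With ND 2 included it was 53.2% for the members in ND and 12.5% over all genes. No other library took the low place as often: the second lowest was ND 3 for 10 members, HCD 4 for 8, HCD 1 for 7, HCD 2 for 5, ND 4 and HCD 3 for 3 each and ND 1 for 1. The highest was ND 4 for 12 members and ND 1 for 9, HCD 3 for 6, HCD 4 for 4 and ND 3, HCD 1 and HCD 2 for 2 each.

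**Figure D2:**
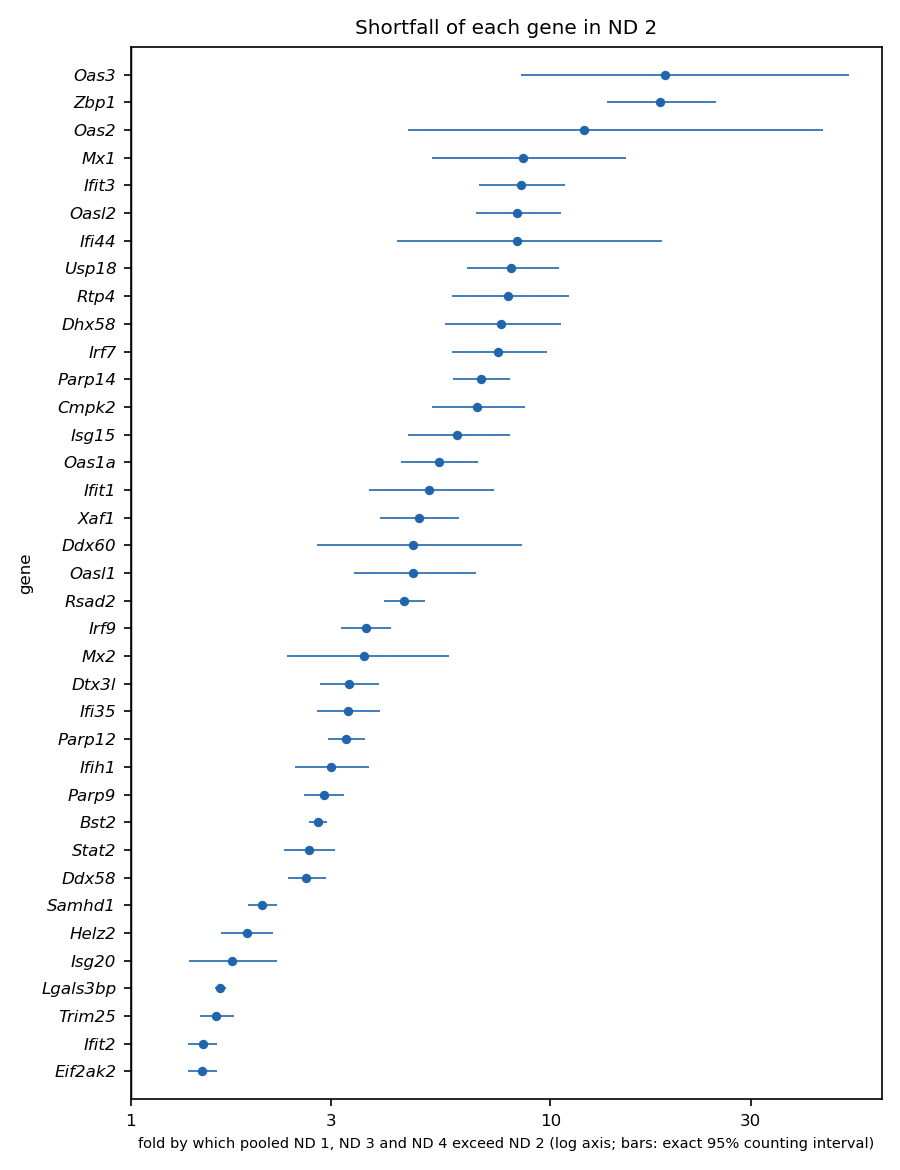
For each member, the point gives how many-fold the pooled level of ND 1, ND 3 and ND 4 exceeds that of ND 2, with a 95% interval that covers counting error only, on a log axis. Ifit2 and Eif2ak2 sit lowest near 1.48-fold, and Zbp1 and Oas3 highest at 18.2-fold and 18.7-fold.

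The 5 sensors of viral RNA and other nucleic acid were all lower in ND 2, by a median of 4.69-fold. Ddx58 (ENSMUSG00000040296, chr4:40203773-40239828), which encodes the RNA sensor RIG-I, had 63.7, 24.6, 60.8 and 69.5 CPM in ND 1 to ND 4 and 63.7, 66.0, 66.2 and 72.1 CPM in HCD 1 to HCD 4. The other libraries of both diets spanned a narrow band that ND 2 did not reach, and the pooled ratio to ND 2 was 2.62-fold (95% counting interval 2.36 to 2.91). Ifih1, which encodes the long double-stranded RNA sensor MDA5, had 6.69 CPM in ND 2 and 18.8 to 22.2 CPM in the others. Dhx58, whose product LGP2 regulates both, had 2.59 CPM in ND 2 and 16.7 to 24.3 CPM in the others, and Ddx60, a helicase that aids them, had 0.904 CPM in ND 2 and 3.94 to 4.85 CPM in the others. Zbp1, a sensor of left-handed nucleic acid that can trigger cell death, was singled out after its values were seen: it had 54.9, 2.83, 51.7 and 47.5 CPM in ND 1 to ND 4 and 49.3, 45.6, 54.3 and 33.0 CPM in HCD 1 to HCD 4. Its ratio to ND 2 was 18.2-fold (95% counting interval 13.7 to 24.9), from 47 counts in that library.

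The 3 transcription factors of the response followed the same split. Irf9 (ENSMUSG00000002325, chr14:55603571-55610030), the DNA-binding part of the STAT complex, had 51.8, 14.2, 50.6 and 51.6 CPM in ND 1 to ND 4 and 42.8, 57.8, 50.1 and 38.8 CPM in HCD 1 to HCD 4. HCD 1, HCD 3 and HCD 4 were below the other ND tumours, and all 3 were above ND 2. Stat2, its partner, had 13.5 CPM in ND 2 and 27.1 to 39.8 CPM in the others. Irf7, which raises interferon transcription in a positive loop, had 3.80 CPM in ND 2 and 20.2 to 33.1 CPM in the others, and HCD 3 was the highest of the HCD libraries. The counts of Irf9 and Irf7 may include reads of neighbours, since exons of Irf9 overlap Rnf31 on the same strand and exons of Irf7 overlap Phrf1 on the other, and no source used here states whether the counting used strand.

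Among the Ifit genes, whose products bind viral RNA that lacks the host's cap marks, the members differed. Ifit1 (ENSMUSG00000034459, chr19:34640871-34650009) had 10.0, 2.29, 9.20 and 16.7 CPM in ND 1 to ND 4 and 14.9, 14.2, 13.8 and 18.0 CPM in HCD 1 to HCD 4. ND 2 was lowest, and ND 1 and ND 3 were below every HCD library while ND 4 was within the HCD range. Ifit2 (ENSMUSG00000045932, chr19:34550694-34576419), the member printed above without a response element core, had 76.2, 48.1, 63.5 and 74.0 CPM in ND 1 to ND 4 and 64.3, 64.7, 70.6 and 66.1 CPM in HCD 1 to HCD 4. ND 2 was again lowest, by 1.48-fold (95% counting interval 1.37 to 1.60) relative to ND 1, ND 3 and ND 4. Ifit3 had 4.64 CPM in ND 2 and 29.1 to 45.6 CPM in the others, though reads may be shared with its near-identical copy Ifit3b. The 3 genes lie next to each other on chromosome 19, and their ratios to ND 2 were 5.13-fold for Ifit1, 1.48-fold for Ifit2 and 8.50-fold for Ifit3.

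The oligoadenylate synthetases make a second messenger that activates the RNA-degrading enzyme RNase L, and the kinase PKR, from Eif2ak2, halts translation on double-stranded RNA. Oas2 (ENSMUSG00000032690, chr5:120730333-120749853) had 3.03, 0.241, 2.84 and 2.78 CPM in ND 1 to ND 4 and 3.66, 4.24, 4.90 and 4.71 CPM in HCD 1 to HCD 4. Every HCD library was above every ND library, which held for no other member, and the count in ND 2 was 4, so its ratio of 12.0-fold (95% counting interval 4.58 to 44.6) is imprecise. Oas3, singled out after its values were seen, had 6.87, 0.362, 7.10 and 6.32 CPM in ND 1 to ND 4 and 5.28, 7.03, 7.67 and 6.58 CPM in HCD 1 to HCD 4, with 6 counts in ND 2 and a ratio of 18.7-fold (95% counting interval 8.52 to 51.5). Oasl2 (ENSMUSG00000029561, chr5:114896936-114912234), a synthetase-like protein, had 42.7, 4.70, 36.2 and 38.4 CPM in ND 1 to ND 4 and 40.1, 43.1, 48.7 and 38.1 CPM in HCD 1 to HCD 4. Both diets overlapped outside ND 2 for Oas3 and Oasl2. Oas1a, a synthetase with the near-identical copy Oas1g, had 5.73 CPM in ND 2 and 21.7 to 35.8 CPM in the others, and Oasl1, which restrains Irf7 translation, had 2.41 CPM in ND 2 and 6.60 to 14.0 CPM in the others. Eif2ak2 (ENSMUSG00000024079, chr17:78852564-78882573) had 68.7, 45.2, 54.9 and 78.3 CPM in ND 1 to ND 4 and 76.0, 70.8, 71.4 and 74.5 CPM in HCD 1 to HCD 4. Its ratio to ND 2 was 1.48-fold (95% counting interval 1.37 to 1.60), the smallest of this role group, and ND 3 lay between ND 2 and the rest.

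**Figure D3:**
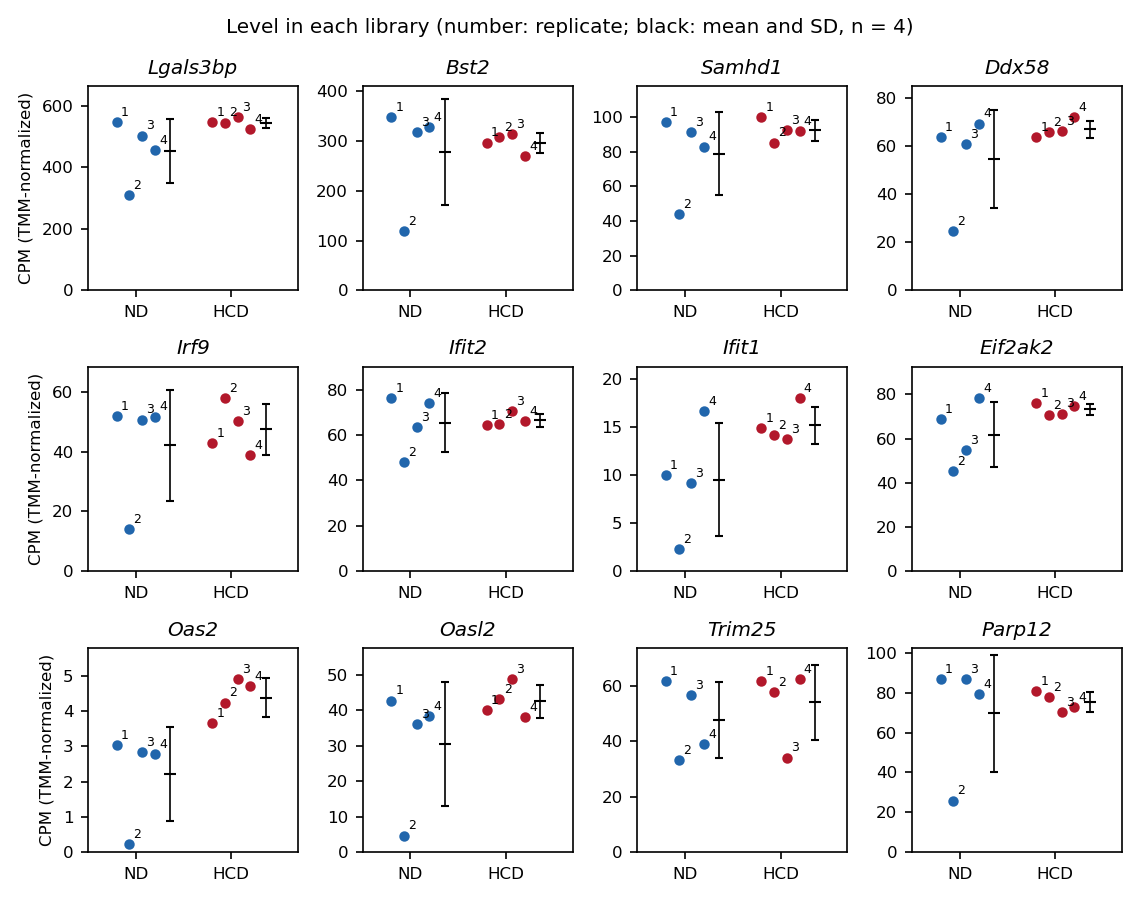
CPM in each tumour, on linear axes that start at 0, for 12 members. Points are libraries numbered by replicate, ND in blue and HCD in red, and black marks give the mean and SD (n = 4). ND 2 is the lowest point in each panel, and of these 12 the groups separate for Oas2 alone.

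The 7 Mx GTPases and other restriction factors act on virus particles or their building blocks. Bst2 (ENSMUSG00000046718, chr8:71534255-71537456), whose product tethers budding virus to the cell, was the member with the highest level per length, at a mean of 377 FPKM. It had 348, 119, 318 and 328 CPM in ND 1 to ND 4 and 297, 307, 315 and 269 CPM in HCD 1 to HCD 4. The other libraries lay within a narrow range and the ratio to ND 2 was 2.79-fold (95% counting interval 2.66 to 2.93). Samhd1 (ENSMUSG00000027639, chr2:157097533-157135265), which depletes the nucleotides that reverse transcription needs, had 97.0, 44.2, 91.4 and 83.1 CPM in ND 1 to ND 4 and 100.01, 85.3, 92.7 and 92.1 CPM in HCD 1 to HCD 4. ND 2 was again lowest, with a ratio of 2.06-fold (95% counting interval 1.90 to 2.23). Rsad2, the antiviral enzyme viperin, had 19.8 CPM in ND 2 and 58.0 to 112 CPM in the others, and its neighbour Cmpk2 on chromosome 12, which supplies nucleotides to it, had 3.98 CPM in ND 2 and 20.9 to 31.1 CPM in the others. Mx1 had 0.964 CPM in ND 2 and 3.88 to 9.02 CPM in the others and Mx2 1.45 CPM in ND 2 and 3.00 to 7.22 CPM in the others. Many inbred mouse strains, the C57BL/6 group among them, carry Mx1 alleles that give no working protein. The GENCODE annotation classes Mx2 as a polymorphic pseudogene. The RNA-degrading Isg20 had 5.0 CPM in ND 2 and 5.82 to 12.4 CPM in the others.

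ISG15 is a ubiquitin-like tag that is attached to proteins during the response, USP18 removes it and dampens the receptor, and TRIM25 activates RIG-I by ubiquitin chains. Trim25 (ENSMUSG00000000275, chr11:88999376-89020293) had 61.5, 33.2, 56.5 and 39.1 CPM in ND 1 to ND 4 and 61.6, 57.6, 34.1 and 62.3 CPM in HCD 1 to HCD 4. Here ND 2, HCD 3 and ND 4 were all low, and the lowest value of ND 2 differed little from that of HCD 3. Isg15, singled out after its values were seen because its promoter carries 3 of the motif matches, had 17.2, 3.38, 23.6 and 20.1 CPM in ND 1 to ND 4 and 15.8, 22.1, 18.8 and 25.1 CPM in HCD 1 to HCD 4. Its ratio to ND 2 was 5.99-fold (95% counting interval 4.57 to 7.99). Usp18 had 4.04 CPM in ND 2 and 24.1 to 38.2 CPM in the others.

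The PARP enzymes add ADP-ribose to proteins or RNA, and DTX3L is the ubiquitin ligase that works with PARP9. Parp12 (ENSMUSG00000038507, chr6:39086410-39118349) had 86.6, 25.9, 86.7 and 79.1 CPM in ND 1 to ND 4 and 80.9, 77.6, 70.2 and 72.6 CPM in HCD 1 to HCD 4. Parp9 (ENSMUSG00000022906, chr16:35938470-35972605) had 64.0, 21.9, 58.8 and 67.1 CPM in ND 1 to ND 4 and 56.8, 50.0, 55.1 and 50.5 CPM in HCD 1 to HCD 4. For both ND 2 was the lowest. For Parp9 every HCD library was also below ND 1, ND 3 and ND 4, while for Parp12 the other tumours overlapped. The ratios to ND 2 were 3.26-fold (95% counting interval 2.95 to 3.61) for Parp12 and 2.88-fold (95% counting interval 2.58 to 3.22) for Parp9. Parp14 had 10.1 CPM in ND 2 and 55.7 to 78.0 CPM in the others and Dtx3l 10.2 CPM in ND 2 and 25.9 to 38.2 CPM in the others. Parp9 and Dtx3l lie head to head on chromosome 16 and overlap, so their counts may not be fully separate.

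Of the other induced genes, Lgals3bp (ENSMUSG00000033880, chr11:118392751-118402092), a secreted glycoprotein that binds galectins, had the highest CPM among the members. It had 545, 308, 503 and 455 CPM in ND 1 to ND 4 and 545, 544, 562 and 522 CPM in HCD 1 to HCD 4. ND 2 was lowest and the ratio was 1.63-fold (95% counting interval 1.59 to 1.68). Ifi35 (ENSMUSG00000010358, chr11:101448407-101458698), which binds the transcription regulator NMI, had 33.9, 8.86, 26.0 and 27.0 CPM in ND 1 to ND 4 and 23.5, 23.6, 30.1 and 21.2 CPM in HCD 1 to HCD 4. ND 1 was above and ND 2 below the range of the other libraries of both diets. Ifi44 had 0.542 CPM in ND 2 and 3.52 to 6.11 CPM in the others, the chaperone gene Rtp4 2.53 CPM in ND 2 and 13.8 to 21.5 CPM in the others and Xaf1, which promotes cell death, 5.67 CPM in ND 2 and 17.7 to 29.5 CPM in the others. The helicase gene Helz2 had 13.9 CPM in ND 2 and 21.7 to 36.1 CPM in the others.

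The comparison of the diets asks whether tumour transcripts differ with dietary cholesterol. No member passed the test (0 of 37, edgeR quasi-likelihood test), and 0 of 37 had an unadjusted p under 0.05, against 14.7% of all genes tested. DESeq2 called 0 of 37 members, against 3.31% of all genes to which it gave an adjusted value. Oas2 was the only member under 0.05 without adjustment in DESeq2, against 8.96% of genes. The fitted level was higher in HCD for 34 members and lower for 3, Stat2, Mx1 and Mx2, where 51.1% of all genes were higher. The median log2 fold change was 0.17 over the members and 0.0049 over all genes. The median SE was 0.392 over the members and 0.129 over all genes. The groups did not overlap for 1 of 37 members, against 9.67% of all genes, of which 4.94% had HCD above and 4.73% HCD below.

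The direction turned when ND 2 was left out: 15 members were higher and 22 lower in HCD, where 51% of all genes were higher and 49% lower, and the median log2 fold change became -0.10. The median SE of the members was then 0.145, near the 0.135 of all genes. With that library left out, 0 of 37 members passed the test, against 0.0898% of all genes, and 4 had an unadjusted p under 0.05 (edgeR), against 13.9% of all genes. Oas2 was higher in HCD (log2 fold change 0.60, unadjusted p = 0.0121, adjusted p = 0.223, edgeR). Lower were Parp9 (-0.25, unadjusted p = 0.0145), Stat2 (-0.31, unadjusted p = 0.0240) and Mx2 (-0.62, unadjusted p = 0.0404), all by edgeR. With a term that sets ND 2, ND 3 and ND 4 apart from the other libraries, 8 members were higher and 29 lower, with 0 called, where 50.1% of all genes were lower. Under this term the ND group is ND 1 alone, so the direction rests on 1 library.

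The 3 largest fitted changes belonged to Oas2, Ifit1 and Oasl2. Oas2 was at 2.22 ± 1.33 CPM (ND) and 4.38 ± 0.555 CPM (HCD; SD, n = 4 each), and its log2 fold change was 0.98 (SE 0.491, adjusted p = 0.395, edgeR). Ifit1 was at 9.56 ± 5.90 CPM (ND) and 15.2 ± 1.93 CPM (HCD; SD, n = 4 each), and its log2 fold change was 0.68 (SE 0.415, adjusted p = 0.498, edgeR). Oasl2 was at 30.5 ± 17.4 CPM (ND) and 42.5 ± 4.63 CPM (HCD; SD, n = 4 each), and its log2 fold change was 0.48 (SE 0.469, adjusted p = 0.703, edgeR). Without ND 2 the values were 0.60, 0.35 and 0.12 in that order. The 3 smallest fitted changes belonged to Parp9, Ifit2 and Ifi35. Parp9 was at 52.9 ± 21.0 CPM (ND) and 53.1 ± 3.35 CPM (HCD; SD, n = 4 each), and its log2 fold change was 0.0056 (SE 0.274, adjusted p = 0.997, edgeR). Ifit2 was at 65.5 ± 12.8 CPM (ND) and 66.4 ± 2.88 CPM (HCD; SD, n = 4 each), and its log2 fold change was 0.022 (SE 0.130, adjusted p = 0.964, edgeR). Ifi35 was at 23.9 ± 10.6 CPM (ND) and 24.6 ± 3.83 CPM (HCD; SD, n = 4 each), and its log2 fold change was 0.041 (SE 0.316, adjusted p = 0.973, edgeR). The abundant members were also close between the diets relative to the ND spread. Lgals3bp was at 453 ± 103 CPM (ND) and 544 ± 16.3 CPM (HCD; SD, n = 4 each), Bst2 at 278 ± 107 CPM (ND) and 297 ± 19.98 CPM (HCD; SD, n = 4 each) and Samhd1 at 78.9 ± 23.8 CPM (ND) and 92.5 ± 6.01 CPM (HCD; SD, n = 4 each). Their log2 fold changes were 0.26, 0.093 and 0.23 with edgeR adjusted p-values of 0.440, 0.912 and 0.656.

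**Figure D4:**
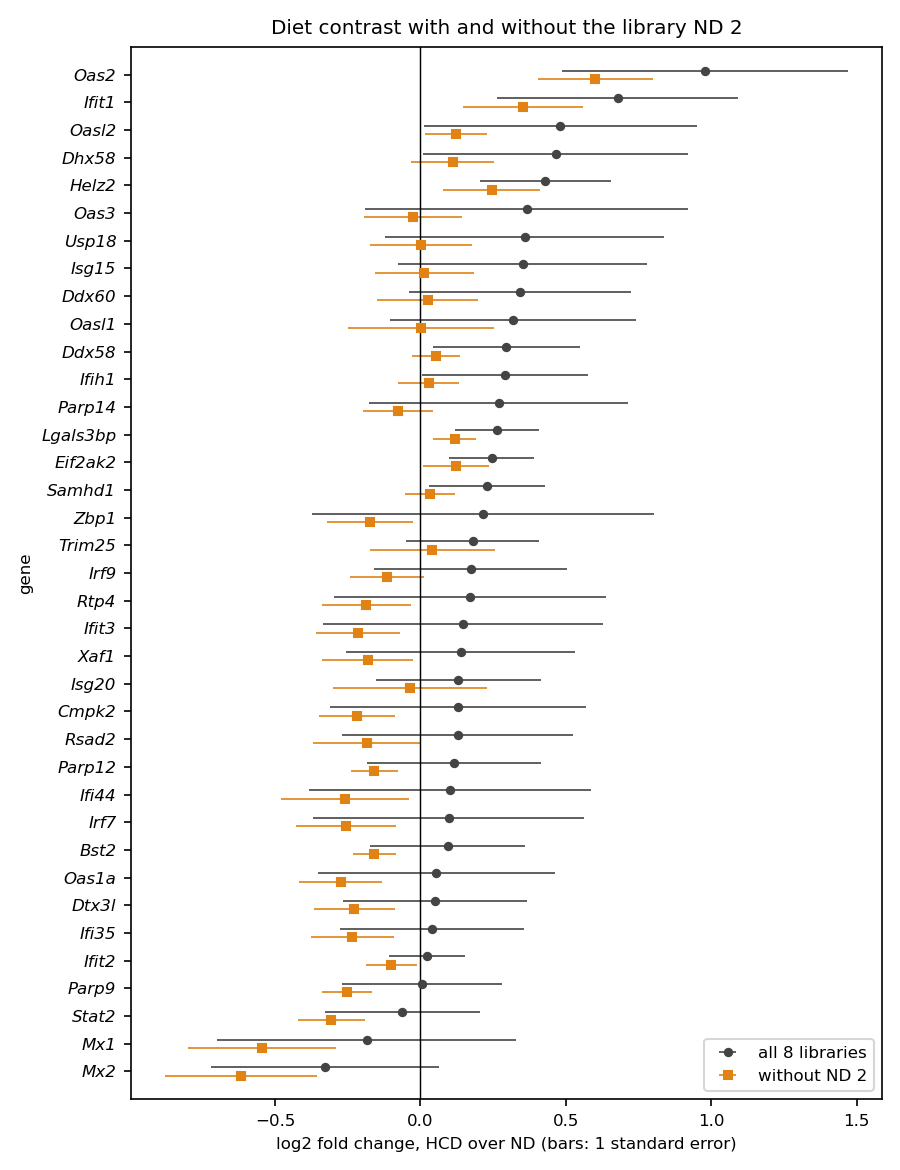
Fitted log2 fold change of HCD against ND for each member with all 8 libraries and without ND 2, with bars of 1 SE. Most points move from the right of 0 to near or left of it when ND 2 is left out, and the bars shorten.

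The rest of the pathway was read from lists of genes. Of the 21 interferon genes, 0 passed the filter on low counts and 9 had 0 counts in all 8 libraries, among them Ifnb1, the interferon beta gene. A count of 0 allows a level of up to 0.170 to 0.208 CPM, depending on the library, and covers counting error only. Genes of the interferon alpha cluster had at most 2 counts, and those counts fell in ND 2, ND 3 and ND 4, the libraries that also had counts on olfactory receptor genes. Ifnz had 0, 4, 5 and 3 counts in ND 1 to ND 4 and 0, 2, 4 and 0 in HCD 1 to HCD 4. Ifng, the type II interferon made by NK and T cells, had 9, 0, 3 and 3 counts in ND 1 to ND 4 and 1, 2, 6 and 3 in HCD 1 to HCD 4. ND 2 was the only library at 0 for Ifng, at counts too low to compare.

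The receptor chains did not share the members' pattern. Ifnar1 had 58.3, 65.9, 62.4 and 56.2 CPM in ND 1 to ND 4 and 76.2, 67.1, 63.3 and 72.7 CPM in HCD 1 to HCD 4, and Ifnar2 had 34.6, 26.5, 35.5 and 31.0 CPM in ND 1 to ND 4 and 30.7, 26.5, 29.7 and 25.4 CPM in HCD 1 to HCD 4. Neither had ND 2 apart from the others. The kinase Jak1 had 118, 118, 124 and 123 CPM in ND 1 to ND 4 and 114, 113, 107 and 118 CPM in HCD 1 to HCD 4, and Tyk2 had 41.0, 34.4, 39.5 and 32.6 CPM in ND 1 to ND 4 and 46.3, 42.3, 42.5 and 39.2 CPM in HCD 1 to HCD 4. In the list of 10 receptor and relay genes, 0 were called between the diets, against 0.182% of all genes, and 2, namely Ifnar1 and Jak2, had an unadjusted p under 0.05, against 14.7% of all genes. The type II receptor chains had 22.7 CPM in ND 2 and 17.2 to 23.5 CPM in the others for Ifngr1 and 52.7 CPM in ND 2 and 49.3 to 60.8 CPM in the others for Ifngr2, and the type III receptor chains had 2.29 CPM in ND 2 and 1.36 to 3.38 CPM in the others for Ifnlr1 and 39.7 CPM in ND 2 and 33.3 to 48.9 CPM in the others for Il10rb.

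Of 16 genes that sense nucleic acid upstream of interferon, 0 were called (0.182% of all genes), and 3 had an unadjusted p under 0.05 (14.7% of all genes). ND 2 was lowest for 9, against 16.7% of all genes, at a median ratio of 1.36-fold. The diet groups did not overlap for 3 of the 16, against 9.67% of all genes: Mavs and Tlr3 were above and Traf6 below in HCD. The adaptor gene Mavs, which relays RIG-I signals, had 37.7, 42.2, 40.0 and 39.2 CPM in ND 1 to ND 4 and 48.3, 45.4, 51.5 and 52.4 CPM in HCD 1 to HCD 4. Its log2 fold change was 0.31 (SE 0.0767, adjusted p = 0.121, edgeR). Tlr3, an endosomal receptor for double-stranded RNA, had 35.8, 21.1, 36.5 and 34.0 CPM in ND 1 to ND 4 and 43.1, 40.2, 40.4 and 41.7 CPM in HCD 1 to HCD 4, and Traf6, a ubiquitin ligase that relays such signals, had 90.6, 92.2, 82.5 and 81.0 CPM in ND 1 to ND 4 and 68.1, 80.9, 70.8 and 67.6 CPM in HCD 1 to HCD 4. Their edgeR adjusted p-values were 0.297 and 0.176. Of 9 brakes on the signal, 0 were called (0.182% of all genes) and 0 had an unadjusted p under 0.05 (14.7% of all genes). ND 2 was lowest for 5 of the 9, against 16.7% of all genes, at a median ratio of 1.27-fold. Socs1, a brake on the receptor kinases that interferon itself induces and that was singled out after its values were seen, had 0.422 CPM in ND 2 and 2.04 to 4.37 CPM in the others. A list of 45 further interferon-induced genes, 44 of them tested, had 0 called (0.182% of all genes) and 3 with an unadjusted p under 0.05 (14.7% of all genes). ND 2 was lowest for 40 of the 44 (16.7% of all genes) and under 50% of the lowest other library for 30 (3.02% of all genes). The median ratio was 3.84-fold. Its member with the smallest p was Slfn9, with 15.6, 8.56, 11.1 and 12.7 CPM in ND 1 to ND 4 and 20.2, 16.7, 15.6 and 19.9 CPM in HCD 1 to HCD 4, and its log2 fold change was 0.59 (SE 0.176, adjusted p = 0.164, edgeR).

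The GTPases that interferon gamma induces, which attack the vacuoles of intracellular pathogens, were also low in ND 2. Of 16 listed genes 15 were tested and 0 were called, against 0.182% of all genes. ND 2 was lowest for all 15 (16.7% of all genes) and under 50% of the lowest other library for all 15 (3.02% of all genes). The median ratio was 12.6-fold when Gbp8, which had 0 counts in ND 2, is set to the level that 3 counts would give. Over the other 14 genes the ratio ran from 7.08-fold to 28.7-fold. Iigp1 had 305, 15.2, 264 and 247 CPM in ND 1 to ND 4 and 333, 227, 275 and 229 CPM in HCD 1 to HCD 4. The summed level was 139.8 CPM in ND 2, 1535 to 1963 CPM in the other ND libraries and 1243 to 1732 CPM in HCD. Without ND 2 all 15 were lower in HCD, with a median log2 fold change of -0.21, where 49% of all genes were lower. In that fit 0 of the 15 were called, against 0.0898% of all genes, and 4 had an unadjusted p under 0.05, against 13.9%.

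**Figure D5:**
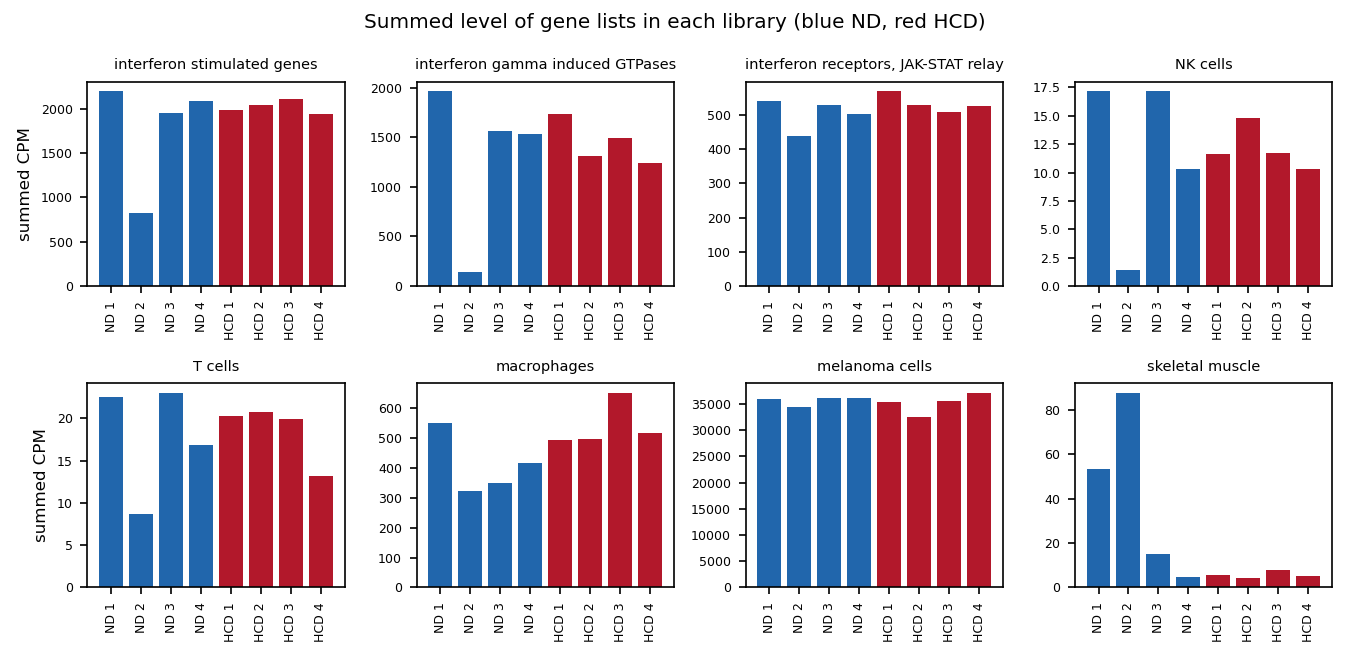
Bars give the CPM summed over a list of genes in each library, ND in blue and HCD in red, on linear axes from 0. The interferon stimulated genes stand at 826 CPM in ND 2 and at 1947 to 2199 CPM elsewhere, while the melanoma markers are level and skeletal muscle is highest in ND 2.

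Markers of several immune cell types were also low in ND 2, which was the lowest library for 16.7% of all genes tested. The summed NK cell markers were 1.39 CPM in ND 2, 10.3 to 17.2 CPM in the other ND libraries and 10.3 to 14.8 CPM in HCD, with 4 of 8 tested and ND 2 lowest for all 4. Klrb1c, Eomes and Gzma were at 0 in ND 2, and Ncr1 was at or near 0 in every library. Gzmb, which encodes a granule protease of cytotoxic cells, had 9.15, 0.301, 8.40 and 3.89 CPM in ND 1 to ND 4 and 4.26, 6.91, 5.88 and 5.05 CPM in HCD 1 to HCD 4. The T cell markers summed to 8.74 CPM in ND 2, 16.8 to 23.0 CPM in the other ND libraries and 13.2 to 20.7 CPM in HCD, with ND 2 lowest for 5 of the 6 tested. The monocyte markers summed to 5.06 CPM in ND 2, 11.9 to 18.2 CPM in the other ND libraries and 15.5 to 22.1 CPM in HCD, with ND 2 lowest for 4 of 5. The macrophage markers summed to 321 CPM in ND 2, 349.8 to 549 CPM in the other ND libraries and 494 to 650.2 CPM in HCD, with ND 2 lowest for 8 of 11. Their mean deviation in log2 CPM from the average of the 8 libraries was -0.74 in ND 2 and -0.61 in ND 3, a library in which the members were not low. The conventional dendritic cell markers summed to 13.4 CPM in ND 2 and 12.8 CPM in ND 3, with ND 2 lowest for 2 of the 4 tested. Cd68, a macrophage marker that other cells also express, was highest of the 8 in ND 2, at 169 CPM.

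The plasmacytoid dendritic cell is the main producer of interferon alpha, and its marker Siglech had 3, 0, 2 and 6 counts in ND 1 to ND 4 and 4, 4, 4 and 3 in HCD 1 to HCD 4. The list of that cell also holds Bst2, a member. Melanoma markers summed to 34480.0 CPM in ND 2, 35974 to 36131 CPM in the other ND libraries and 32547 to 37150.0 CPM in HCD, with ND 2 inside the range of HCD. Skeletal muscle markers summed to 87.6 CPM in ND 2, the highest library. They summed to 4.79 to 53.3 CPM in the other ND libraries and 4.24 to 8.08 CPM in HCD. The keratinocyte markers were at or near 0 in every library. The part of these cell markers in the members' levels was not tested.

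Outside all lists, the 10 genes with the most similar pattern were ranked by Pearson r between their log2 CPM and the members' mean deviation over the 8 libraries. They were H2-D1 (0.998), Gm4951 (0.994), H2-Q6 (0.993), Pira2 (0.992), Parp10 (0.990), C4b (0.990), Abl1 (0.987), Psmb8 (0.986), Itgam (0.984) and Ripk3 (0.983). H2-D1 and H2-Q6 encode class I antigen-presenting molecules, Psmb8 an immunoproteasome subunit, C4b a complement component, and Itgam the integrin chain CD11b of myeloid cells. H2-D1 had 1189.6, 382, 1033 and 1167 CPM in ND 1 to ND 4 and 1065, 1051, 1159.7 and 1099 CPM in HCD 1 to HCD 4, and Psmb8 had 251, 20.9, 197 and 203 CPM in ND 1 to ND 4 and 187, 201, 207 and 142 CPM in HCD 1 to HCD 4. These points share 1 library far from the rest. Over the 7 libraries without ND 2, r was 0.895 for H2-D1, 0.866 for Gm4951, 0.703 for H2-Q6, 0.550 for Pira2, 0.763 for Parp10, 0.677 for C4b, 0.169 for Abl1, 0.520 for Psmb8, 0.286 for Itgam and 0.389 for Ripk3. The lowest r without ND 2 were those of Abl1, Itgam and Ripk3. These r values are a description, with no test.

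The member genes with a response element core in the promoter had a median ratio to ND 2 of 5.23-fold (2.67 to 18.7, 9 genes), and those with a promoter entry but no match had 3.25-fold (1.48 to 8.45, 19 genes). The ranges overlapped widely. Among the genes printed above, Ifit2 had the smallest ratio, while Irf7, also with no match, had 7.41-fold. The members include neighbours on the chromosomes, such as Oas1a, Oas2 and Oas3, Oasl1 and Oasl2, the Ifit genes, Mx1 and Mx2, and Parp9, Parp14 and Dtx3l, so they are not independent loci.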

How the data were processed

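Total RNA of 8 B16F10 tumours was sequenced from paired-end TruSeq libraries, per the labels' protocols. Tools named without roles are CASAVA 1.8, TopHat2 2.0.9, HTSeq and edgeR, with the build mm10, per the submitters' processing notes. Annotation release and strand setting: not given in the sources used here. The deposited counts, per the file headers, are whole numbers for each Ensembl gene and are not normalized. Each file also holds FPKM, per the file headers, which equal the count over a gene length and over the library's total to within 0.0007 of their value. The FPKM values served only to compare levels between genes.

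Groups and replicate numbers came from the labels. Names and gene coordinates came from GENCODE mouse M21 (GRCm38, also called mm10), which matched 34267 of the 34745 genes listed, and promoters from RefSeq (GRCm38.p6). Counts were tested with the quasi-likelihood test of edgeR 4.0.16 (under R 4.3.3, with limma 3.58.1), using TMM factors and a filter on low counts (minimum 10, minimum total 15), over 13186 genes, with diet as the only term and Benjamini-Hochberg adjustment at 0.05. CPM are TMM-normalized, and log2 CPM use a prior count of 2. Pairs of libraries in a group gave a chi-square of 12.9 to 33.2 per degree of freedom, above sampling noise, so none was a copy. Intervals are exact, at 95%, and cover counting error only, since the reads carry no molecular identifiers in the sources used here.

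On simulated counts of the HCD against ND comparison (13186 genes) planted changes of 1.5-fold were called in 22 of 67 genes, of 2-fold in 55 of 67 and of 4-fold in 62 of 66, and 9 other genes were called falsely. These rates are over all genes and need not hold for the members. In the fit of all libraries the median SE was 0.392 for the members and 0.129 for all genes. The absence of calls therefore does not exclude changes of 1.5-fold or 2-fold in members with an SE near or above 0.392. Alternatives were DESeq2 1.42.0, its size factors in edgeR, no filter, a replicate block, a term for ND 2 to ND 4 and leaving out each library.

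The members, gene lists, tests and alternatives were chosen with earlier results of these data known. Values in all libraries were printed for the 3 members of highest CPM, the 3 with the largest and the 3 with the smallest fitted change, the most abundant member of each role, receptors and ligands, and among the pathway lists from the 4 genes with the smallest p. The other genes whose values are given were chosen after their values were seen. Results of 1 pathway gene are not reported here.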

Additional observations from a re-analysis of the deposited data

Results flagged for a closer look

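In 9 of the 37 members the ND 2 library stood apart from the other 3 ND libraries, with a gap to the nearest of them that, as a share of the group's whole range, passed the 95% limit of Dixon's test for 4 samples. The gap was 0.841 of the range for Ifih1, 0.857 of the range for Zbp1, 0.888 of the range for Ddx60, 0.969 of the range for Irf9, 0.908 of the range for Oas2, 0.884 of the range for Oas3, 0.869 of the range for Bst2, 0.876 of the range for Parp12 and 0.839 of the range for Rtp4. In the HCD group HCD 3 stood apart for 2 members, as the highest for Irf7 (0.857) and as the lowest for Trim25 (0.834). Because ND 2 was already known to be low for these genes, its gaps are a description and not an independent test. Chance flags about 1 in 20 groups of 4. Of all genes tested, 5.55% passed the limit in ND and 5.58% in HCD. The 2 of 37 members in HCD are near that share. The 9 members are not independent of each other, since they share the same low library.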

How the results depend on the processing

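No member was called between the diets by any of the alternatives (0 of 37 each), which were DESeq2, edgeR with DESeq2's size factors, no filter on low counts, a replicate block, a term for ND 2, ND 3 and ND 4, and leaving out each library in turn. The number of genes called was 24, became 93 with no filter, 428 with DESeq2, 5 with the term and 0 with the replicate block, and ran from 0 to 12 when 1 library was left out, with each of the 8 libraries moving it by over 1.5 times. The number of members with an unadjusted p under 0.05 was 0, against 14.7% of all genes. It became 3 with no filter (10.2% of all genes), 1 with DESeq2 (8.96%) and 1 with the replicate block (12.4%). When 1 library was left out it ran from 0 to 4. It was 1 without ND 1 (13.4% of all genes), 4 without ND 2 (13.9%) and 3 without ND 4 (12.0%). The number of members higher in HCD was 34, became 8 with the term, and ran from 15, without ND 2, to 37, without ND 4. The median log2 fold change of the members was 0.17, became -0.13 with the term, and ran from -0.10, without ND 2, to 0.37, without ND 4. The cause of these changes was not tested.

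With the term, under which ND 1 alone stands for the ND group, the log2 fold change turned below 0 for 26 members: -0.065 for Dhx58, -0.27 for Zbp1, -0.031 for Ddx60, -0.13 for Irf9, -0.49 for Irf7, -0.20 for Ifit2, -0.33 for Ifit3, -0.49 for Oas1a, -0.048 for Oas3, -0.18 for Oasl1, -0.0056 for Oasl2, -0.23 for Bst2, -0.068 for Samhd1, -0.16 for Rsad2, -0.095 for Cmpk2, -0.068 for Usp18, -0.19 for Trim25, -0.27 for Parp9, -0.20 for Parp12, -0.26 for Parp14, -0.40 for Dtx3l, -0.11 for Ifi44, -0.46 for Ifi35, -0.065 for Rtp4, -0.29 for Xaf1 and -0.0048 for Lgals3bp. When 1 library was left out, the log2 fold change changed sign for 22 members, and the ranges over the 8 fits were Zbp1 -0.17 to 0.42, Stat2 -0.31 to 0.093, Irf9 -0.12 to 0.29, Irf7 -0.26 to 0.36, Ifit2 -0.10 to 0.10, Ifit3 -0.21 to 0.39, Oas1a -0.27 to 0.30, Oas3 -0.026 to 0.56, Mx1 -0.55 to 0.015, Mx2 -0.62 to 0.031, Bst2 -0.16 to 0.22, Isg20 -0.036 to 0.42, Rsad2 -0.19 to 0.42, Cmpk2 -0.22 to 0.37, Parp9 -0.25 to 0.14, Parp12 -0.16 to 0.24, Parp14 -0.077 to 0.50, Dtx3l -0.23 to 0.24, Ifi44 -0.26 to 0.48, Ifi35 -0.23 to 0.26, Rtp4 -0.19 to 0.36 and Xaf1 -0.18 to 0.31. All of these except Stat2, Mx1 and Mx2 changed sign without ND 2. The correlation of same-numbered deviations was 0.025, -0.011, -0.068 and 0.11 for numbers 1 to 4. Differently numbered pairs ran from -0.28 to 0.20. No pairing by replicate number was seen, but these correlations cannot exclude one. With the replicate block 36 members were higher in HCD, and the log2 fold change turned above 0 for Stat2 (0.035) and Mx1 (0.023). Members of low count are limited by depth: in ND 2 Oas2 rested on 4 counts and Oas3 on 6.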
